A study of Fukomys damarensis and Heterocephalus glaber and Mus musculus with 160 samples.

Results

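In the liver of the naked mole-rat (Heterocephalus glaber), 3 histone marks were mapped in the same animals, and their positions were set against each other here. The lists used were all histone peak lists titled NMR and Liver: 5 of H3K4me3, 5 of H3K27ac and 5 of H3K4me1. These are 15 of the 116 peak lists and of the 160 samples of the series, and they held 1694272 peaks. The 5 animals were wild-type adult males, and each gave 1 library per mark, so that every overlap was taken between 2 libraries of 1 animal. NMR30 was 13 months old, NMR31 14, NMR35 15, and NMR32 and NMR34 17. Titles carry a library code beginning vl for NMR30 and NMR31 and do for the other 3 animals, so library series and age cannot be told apart. No agent or altered allele was involved, and livers were perfused, diced and crosslinked soon after death.

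The study profiled chromatin by immunoprecipitation and sequencing (ChIP-seq) in liver and heart of 2 African mole-rats, guinea pig and mouse. Livers of other wild-type adult males served for comparison where an animal had lists of all 3 marks. These were 4 C57BL/6J mice of 2 months, 3 guinea pigs of 2.3 months and 2 Damaraland mole-rats with an estimated age of 48 months. Lists of the transcription factors CEBPA, FOXA1, HNF4A and RXRA came from NMR30 and NMR35. Their library codes all begin with vl, so in NMR35 factor and histone lists come from different library series.

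Chromatin wraps DNA around histone proteins, and enzymes add small chemical groups to the histone tails. Trimethylation of lysine 4 on histone H3 (H3K4me3) is deposited around transcription start sites of active or poised genes. Monomethylation of the same lysine (H3K4me1) is typical of enhancers, the distant elements that raise a gene's transcription, and often borders promoters. Acetylation of lysine 27 (H3K27ac) accompanies both promoters and enhancers when they are active. In liver, enhancers with these marks are known to be bound by hepatocyte factors such as HNF4A and CEBPA.

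One library stood apart. The H3K4me3 list of NMR30 held 253457 peaks, 87.4% of them at that list's shortest length of 285 bases and 39.1% with a −log10 q of at least 4. The other 4 H3K4me3 lists held 27591 to 48726 peaks, 4.96% to 38.7% of them at the shortest length, and 66.7% to 94.4% passed the same q. Its overlap with the other H3K4me3 lists, as bases covered by both over bases covered by either, reached 0.156 at most, whereas pairs of the other 4 lists gave at least 0.655. H3K27ac lists held 87316 to 131043 peaks and H3K4me1 lists 132759 to 180145. The main results that rest on the H3K4me3 list of NMR30 are given with and without it. A peak is an interval in whole tissue with more reads than the input, so an overlap does not show that marks shared a cell or a nucleosome.

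In 4 of 5 animals most H3K4me3 peaks met an H3K27ac peak, and in all 5 most H3K27ac peaks met H3K4me1 while most H3K4me1 peaks met neither other mark. These shares also follow the number of peaks in each list, as shown further on with equal numbers. A peak counted as overlapped when the bases shared with a peak of the other mark reached 50% of the shorter of the 2. The share of H3K4me3 peaks overlapped by H3K27ac was 74.9% in NMR31, 71.2% in NMR34, 68.0% in NMR35, 54.6% in NMR32 and 8.78% in NMR30. NMR30 lay far below the other 4 animals. The mean was 55.5% ± 27.2 (SD, n = 5), and 67.2% ± 8.86 (n = 4) without NMR30. H3K4me3 peaks were overlapped by H3K4me1 in 54.7% of cases in NMR34, 42.9% in NMR35, 37.8% in NMR31, 32.4% in NMR32 and 6.12% in NMR30.

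Acetylated peaks were most often paired with H3K4me1. The share of H3K27ac peaks with H3K4me1 was 62.1% in NMR34, 60.1% in NMR32, 57.5% in NMR35, 55.1% in NMR30 and 53.6% in NMR31. The share with H3K4me3 was 26.9%, 24.7%, 22.6%, 25.4% and 20.0% in the same order. These ranges did not overlap, and here NMR30 fell among the other animals. H3K27ac peaks were overlapped by H3K4me1 more often than by H3K4me3 by 33.8 percentage points, 57.7% ± 3.47 against 23.9% ± 2.66 (SD, n = 5 each; adjusted exact permutation p = 0.0159, two-sided, 6 comparisons). The permutation did not keep the shares of an animal paired, and paired results are given further on.

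Most H3K4me1 peaks met no peak of another mark, and H3K4me1 had the most peaks of the 3 marks in each animal but NMR30. H3K27ac overlapped 44.0% of H3K4me1 peaks in NMR31, 42.6% in NMR35, 38.5% in NMR32, 28.9% in NMR30 and 28.8% in NMR34. H3K4me3 overlapped 11.4% of them in NMR35, 10.8% in NMR32, 9.98% in NMR34, 9.57% in NMR30 and 8.12% in NMR31. Each animal gave a higher value for H3K27ac, with a mean difference of 26.6 points (36.6% ± 7.33 against 9.98% ± 1.27, SD, n = 5; adjusted exact permutation p = 0.0159).

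The overlap was unequal in the 2 directions. Both directions count the same overlapping pairs, so the difference largely follows the numbers of peaks in the 2 lists. In NMR31, 57868 of 107883 H3K27ac peaks met H3K4me1, and 58390 of 132759 H3K4me1 peaks met H3K27ac. H3K27ac peaks carried H3K4me1 more often than the reverse, by 21.1 points (adjusted exact permutation p = 0.0159, n = 5), in 5 of 5 animals. H3K4me3 peaks carried H3K27ac more often than H3K27ac peaks carried H3K4me3, by 31.6 points, and H3K4me3 peaks carried H3K4me1 more often than the reverse, by 24.8 points. Each of these held in 4 of 5 animals, NMR30 being the exception, and neither passed (adjusted exact permutation p = 0.0571 each, n = 5). Without NMR30 the differences were 43.6 and 31.9 points (adjusted exact permutation p = 0.0343 each, n = 4). The excess of H3K27ac over H3K4me1 at H3K4me3 peaks, 20.7 points, was seen in 5 of 5 animals and did not pass (adjusted exact permutation p = 0.198).

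**Figure D1:**
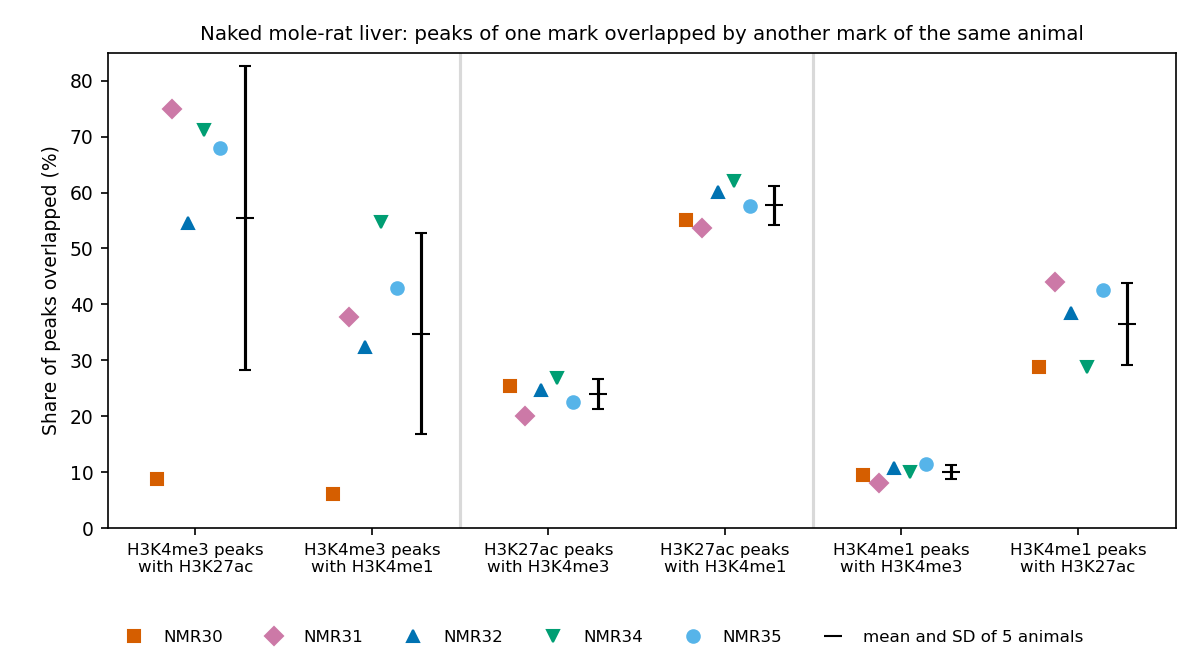
Share of peaks of 1 mark overlapped by a second mark of the same animal, in percent, for the 6 directed pairs of marks; points are the 5 animals and bars the mean and SD. The H3K4me3 shares of NMR30, 8.78% and 6.12%, lie far below the others, while its H3K27ac and H3K4me1 shares lie among or near those of the other animals.

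The 3 calls on overlap rest on 5 animals and on the numbers of peaks. With pairs kept within an animal (exact sign-flip test, smallest p 0.063) each had an adjusted p of 0.0938. Leaving out NMR31, NMR32, NMR34 or NMR35 kept the differences between 18.1 and 33.8 points but raised each adjusted exact permutation p to 0.0571, where 4 against 4 allow no unadjusted p below 0.0286. Without NMR30 all 3 kept their call (adjusted exact permutation p = 0.0343). A list with more peaks covers more of another, and the lists differed in number. With the 20000 strongest peaks of every library, ranked by −log10 p, H3K4me3 overlapped 56.3% ± 5.85 of H3K27ac peaks and H3K4me1 overlapped 26.3% ± 3.08 (SD, n = 5), so the order of the 2 partners of H3K27ac changed (−30.0 points, adjusted exact permutation p = 0.0159). At that number the difference between directions was −0.798 points for H3K4me3 with H3K27ac (adjusted exact permutation p = 0.960) and −1.36 for H3K27ac with H3K4me1 (0.881), so the second call was lost. Lists of equal number leave little room for such a difference, since both directions count the same pairs.

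With these 20000 strongest peaks NMR30 came near the other animals for H3K27ac and not for H3K4me1. H3K27ac overlapped 48.4% of its H3K4me3 peaks, against 51.5% in NMR31, 54.7% in NMR34 and 61.4% in each of NMR32 and NMR35. H3K4me1 overlapped 2.17% of them, against 6.93% to 10.7% in the other 4. NMR30 was the lowest of the 5 for both partners.

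Overlap with the acetyl mark followed peak strength. Fold is the enrichment over background that the authors' peak caller gave each peak, and it was used to rank peaks within a list. In the lowest quintile (the weakest 20% of a list) of H3K4me3 peaks by fold, 50.5% were overlapped by H3K27ac in NMR31, 40.3% in NMR34, 26.7% in NMR35, 9.83% in NMR32 and 2.33% in NMR30. In the highest quintile the shares were 99.0%, 99.5%, 99.9%, 99.7% and 30.1%. Nearly all strong H3K4me3 peaks of 4 animals thus met an H3K27ac peak, whereas the highest quintile of NMR30, which holds 50691 peaks, did so far less often. The share of H3K4me3 peaks with H3K4me1 moved less, from 33.0% ± 16.4 in the lowest to 48.0% ± 11.3 in the highest quintile without NMR30 (SD, n = 4), and in NMR31 it was 40.2% and 40.1%.

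The same order held from the acetyl side. H3K4me3 overlapped 7.43% ± 0.953 of the lowest and 62.4% ± 5.08 of the highest quintile of H3K27ac peaks (SD, n = 5), and the highest quintile ran from 53.6% in NMR31 to 66.2% in NMR30. H3K4me1 overlapped 46.4% ± 4.73 and 63.2% ± 5.38 of these quintiles, with its highest mean, 66.6% ± 3.45, in the fourth. Among H3K4me1 peaks, H3K27ac rose from 19.8% ± 7.36 to 66.5% ± 7.98 and H3K4me3 from 6.78% ± 0.929 to 15.5% ± 3.05. Stronger peaks were also wider: in NMR35 the median width of H3K27ac peaks was 187 bases in the lowest and 950 in the highest quintile. A wider peak can meet more peaks, and the part of width in these shares was not tested.

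**Figure D2:**
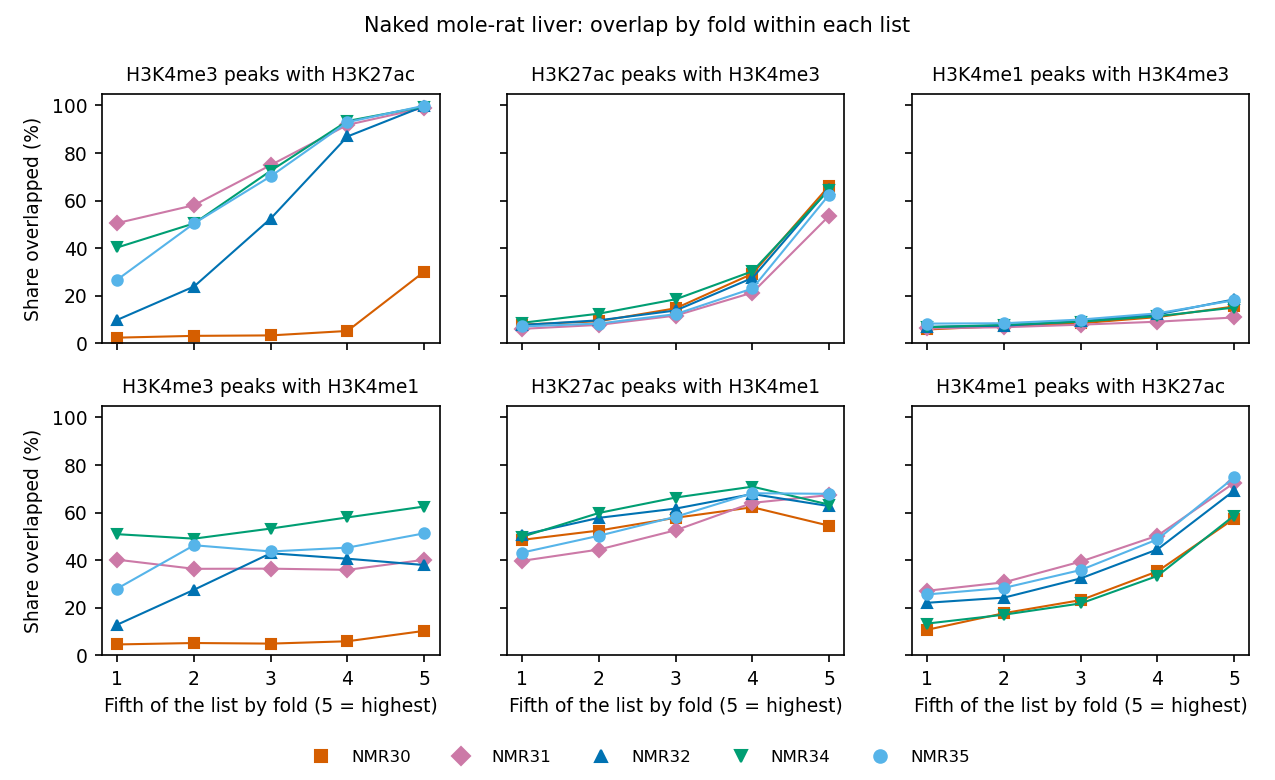
Share of peaks overlapped, in percent, for quintiles of each list ordered by the caller's fold (5 = highest), in 6 panels of directed pairs; each line is 1 animal. H3K4me3 peaks with H3K27ac reach 99.0% to 99.9% in the highest quintile of 4 animals and 30.1% in NMR30, while H3K4me3 peaks with H3K4me1 change little across quintiles in NMR31.

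Summits, the point of highest signal within a peak, lay closest between H3K4me3 and H3K27ac. Over overlapping peaks, the median distance between H3K4me3 and H3K27ac summits was 76 bases in NMR31, 80 in NMR32 and NMR35, 106 in NMR34 and 122 in NMR30. Between H3K27ac and H3K4me1 it was 207 in NMR35, 216 in NMR34, 228 in NMR31, 231 in NMR30 and 267 in NMR32. Between H3K4me3 and H3K4me1 it was 336 in NMR32, 348 in NMR35, 371 in NMR31, 399 in NMR34 and 194 in NMR30. The first 2 ranges did not overlap, and H3K4me1 summits were farthest from H3K4me3 summits in all animals but NMR30.

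On the log2 scale the H3K27ac to H3K4me1 distance exceeded the H3K4me3 to H3K27ac distance by 1.33 and the H3K4me3 to H3K4me1 distance exceeded it by 1.81 (adjusted exact permutation p = 0.0119 each, n = 5, higher in 5 of 5 animals, 3 comparisons). The H3K4me3 to H3K4me1 distance exceeded the H3K27ac to H3K4me1 distance by 0.48 (adjusted exact permutation p = 0.0476), in 4 of 5 animals. Summits within 200 bases made up 64.9% ± 2.51 of H3K4me3 and H3K27ac pairs, 46.4% ± 2.68 of H3K27ac and H3K4me1 pairs and 37.2% ± 7.99 of H3K4me3 and H3K4me1 pairs (SD, n = 5).

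With animals kept paired, the adjusted exact sign-flip p was 0.0938, 0.0938 and 0.125 for these 3 differences, where 5 animals allow none below 0.063. The smallest one lost its call without NMR31 (0.43), NMR32 (0.52), NMR34 (0.38) or NMR35 (0.42; adjusted exact permutation p = 0.143 each) and kept it without NMR30. Measured to the nearest summit of the other mark whether or not peaks overlapped, the first difference was −0.14 and the second 1.38, and neither passed (adjusted exact permutation p = 0.992 and 0.679). The third, H3K4me3 to H3K4me1 minus H3K27ac to H3K4me1, was 1.52 and passed (adjusted exact permutation p = 0.0238). That H3K4me3 and H3K27ac summits lay closest therefore describes peaks that overlap.

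In 4 of 5 animals H3K4me1 peaks mostly flanked strong H3K4me3 peaks and seldom covered their summits. Of the highest quintile of H3K4me3 peaks by fold, an H3K4me1 peak touched the peak with the summit left outside in 80.0% of cases in NMR34, 71.3% in NMR31, 67.1% in NMR35, 60.4% in NMR32 and 12.05% in NMR30. The H3K4me3 summit lay inside an H3K4me1 peak in 6.11%, 2.30%, 5.74%, 8.32% and 6.42% of cases in the same order. Over all H3K4me3 peaks the summit was inside in 20.2% to 29.6% of cases in the 4 other animals and in 5.32% in NMR30. Without NMR30, the share inside was 5.62% ± 2.49 in the highest quintile against 25.1% ± 4.02 over all peaks (SD, n = 4). A further 15.9% ± 4.30 of the highest quintile had an H3K4me1 peak within 1000 bases without contact, and 8.80% ± 3.23 had none so near. In the highest quintile of NMR30, 65.8% had no H3K4me1 peak within 1000 bases.

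Width ordered the marks less clearly. Median H3K27ac peaks were narrower than H3K4me1 peaks, at 348 ± 40.4 against 447 ± 60.9 bases (SD, n = 5), a difference of −0.36 on the log2 scale, in 5 of 5 animals (adjusted exact permutation p = 0.0238, 3 comparisons). The H3K27ac medians were 390 in NMR30 and NMR31, 337 in NMR32, 319 in NMR35 and 303 in NMR34. The H3K4me1 medians were 402, 443, 552, 425 and 411 in the order NMR30, NMR31, NMR32, NMR35 and NMR34. H3K4me3 medians varied from 239 bases in NMR32 to 666 in NMR34, with 285 in NMR30, 380 in NMR35 and 595 in NMR31, and differed from neither other mark by this test (adjusted exact permutation p = 0.619 each).

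The width call was not held by several settings. It was −0.30 with peaks of a −log10 q of at least 4 (adjusted exact permutation p = 0.0714) and −0.11 with the 20000 strongest peaks (0.397). Exchanging libraries within the vl and do series gave an adjusted exact permutation p of 0.05, with a difference of −0.52 in the 3 do animals and −0.11 in the 2 vl animals. Paired by animal the adjusted exact sign-flip p was 0.188, where 5 animals allow no p below 0.063. Without 1 animal the difference ran from −0.44 to −0.27, with an adjusted exact permutation p of 0.0857 whichever of the 5 animals was left out. The call was lost in each case. As 4 against 4 allow no unadjusted p below 0.0286, adjustment over 3 comparisons left little room to pass, and the direction stayed.

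Peaks with both other marks had a higher median fold than peaks alone, for each mark and in each animal, but the steps between differed by mark. H3K27ac rose at both steps in each animal, and the step from 2 to 3 marks had no common direction for H3K4me3 or H3K4me1. For H3K27ac, the median fold of peaks alone, with 1 other mark and with both was 5.76, 7.56 and 15.0 in NMR30, 4.61, 6.19 and 13.2 in NMR31, and 4.85, 6.49 and 14.2 in NMR32. It was 4.72, 6.16 and 10.2 in NMR34 and 4.66, 6.22 and 13.2 in NMR35. In each animal the step from 2 to 3 marks was larger than that from 1 to 2, at 1.01 ± 0.16 against 0.41 ± 0.02 on the log2 scale (SD, n = 5). The class with 1 other mark pooled unlike partners. H3K27ac peaks with H3K4me1 and no H3K4me3, 47.2% of peaks, had median folds of 5.71 to 6.76. Those with H3K4me3 and no H3K4me1, 13.4% of peaks, had 9.29 to 14.0, nearer the 10.2 to 15.0 of all 3 marks. From 1 to 3 marks the increase was 1.41 ± 0.18, or 2.68 times. It was 0.71 with the 20000 strongest peaks and 0.76 when a summit had to lie inside the other peak.

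For H3K4me3 the first added mark went with the larger step. Median folds alone, with 1 other mark and with both were 7.50, 25.7 and 28.5 in NMR31, 6.09, 18.0 and 37.9 in NMR34, and 4.51, 16.7 and 21.02 in NMR35. They were 3.94, 15.2 and 13.9 in NMR32 and 4.04, 6.84 and 5.87 in NMR30, so that in these 2 animals the median fell from 2 to 3 marks. The log2 increase from 1 to 3 marks was 1.83 ± 0.79 (SD, n = 5), lowest in NMR30 (0.54) and highest in NMR34 (2.64), with a mean of 2.15 without NMR30. It was 0.50 when a summit had to lie inside the other peak. The kind of partner mattered in these values. Without NMR30, H3K4me3 peaks with H3K27ac and no H3K4me1 had a mean median fold of 29.2. Those with all 3 marks had 25.3, those with H3K4me1 and no H3K27ac 6.37, and those alone 5.51 (n = 4). Peaks with H3K27ac and no H3K4me1 exceeded those with all 3 marks in each animal but NMR34 (34.6 against 37.9). The values were 32.7 against 28.5 in NMR31, 25.8 against 21.02 in NMR35, 23.7 against 13.9 in NMR32 and 13.0 against 5.87 in NMR30.

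For H3K4me1 the classes were close, with a gain of 0.41 ± 0.09 on the log2 scale from 1 to 3 marks and 0.00 ± 0.10 from 2 to 3 (SD, n = 5). The gain from 1 to 3 was 0.07 with the 20000 strongest peaks and 0.22 under the summit rule. Median folds with all 3 marks ran from 5.64 in NMR31 to 7.14 in NMR30, and those of H3K4me1 alone from 4.61 to 4.93. All 3 increases from 1 to 3 marks held in 5 of 5 animals, with an exact sign-flip p of 0.063 each, the smallest that 5 animals allow, so none could pass. Treated as unpaired class medians they passed, with adjusted exact permutation p of 0.0238 for H3K4me3 and 0.0119 for the others. Width followed the same classes: H3K27ac peaks alone had a mean median width of 232 bases, those with both other marks 886.

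**Figure D3:**
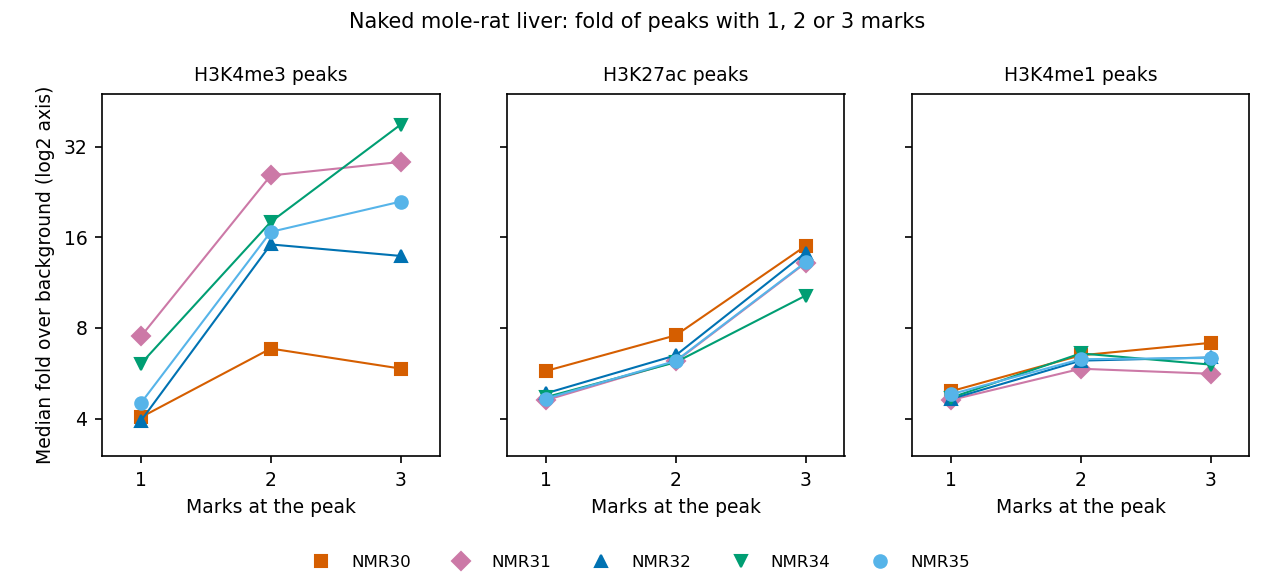
Median fold over background, on a log2 axis, of peaks with 1, 2 or 3 marks, in a panel for each mark; each line is 1 animal. H3K27ac rises to 10.2 to 15.0 at peaks with all 3 marks, H3K4me3 rises from 1 to 2 marks in each animal and falls from 2 to 3 in NMR30 and NMR32, and H3K4me1 stays between 4.61 and 7.14.

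Overlapping peaks of the 3 marks were then joined into regions within each animal, which sorts the liver into 7 combinations. H3K4me1 alone was the commonest in 4 of 5 animals: 57.9% of regions in NMR34, 41.9% in NMR32, 40.5% in NMR35, 40.2% in NMR31 and 25.5% in NMR30. Regions with H3K27ac and H3K4me1, the pattern usual for active enhancers, made up 24.0% in NMR31, 22.3% in NMR35, 19.5% in NMR32, 17.5% in NMR34 and 7.65% in NMR30. In NMR30, H3K4me3 alone took 53.8% of 414181 regions, against 2.36% to 9.78% in the others.

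Combinations of H3K4me3 with H3K27ac were less frequent but wide. Regions with all 3 marks numbered 15308 in NMR35, 13547 in NMR34, 12838 in NMR32, 10738 in NMR30 and 9927 in NMR31. They were 6.56% ± 0.671 of regions and 17.8% ± 1.76 of the bases without NMR30 (SD, n = 4), and 5.76% ± 1.87 and 16.2% ± 3.85 with it (n = 5). Their median span was 1395 to 1551 bases, the widest of the 7 combinations. H3K4me3 with H3K27ac and no H3K4me1 numbered 6848 in NMR34 to 11011 in NMR30 with median spans of 707 to 856 bases. H3K4me3 with H3K4me1 and no acetylation was the rarest, at 1.33% ± 0.219 of regions (n = 5). With the 20000 strongest peaks per library, 32.1% of regions had 2 marks and 3.81% had 3, against 23.9% and 5.76% with all peaks (n = 5).

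**Figure D4:**
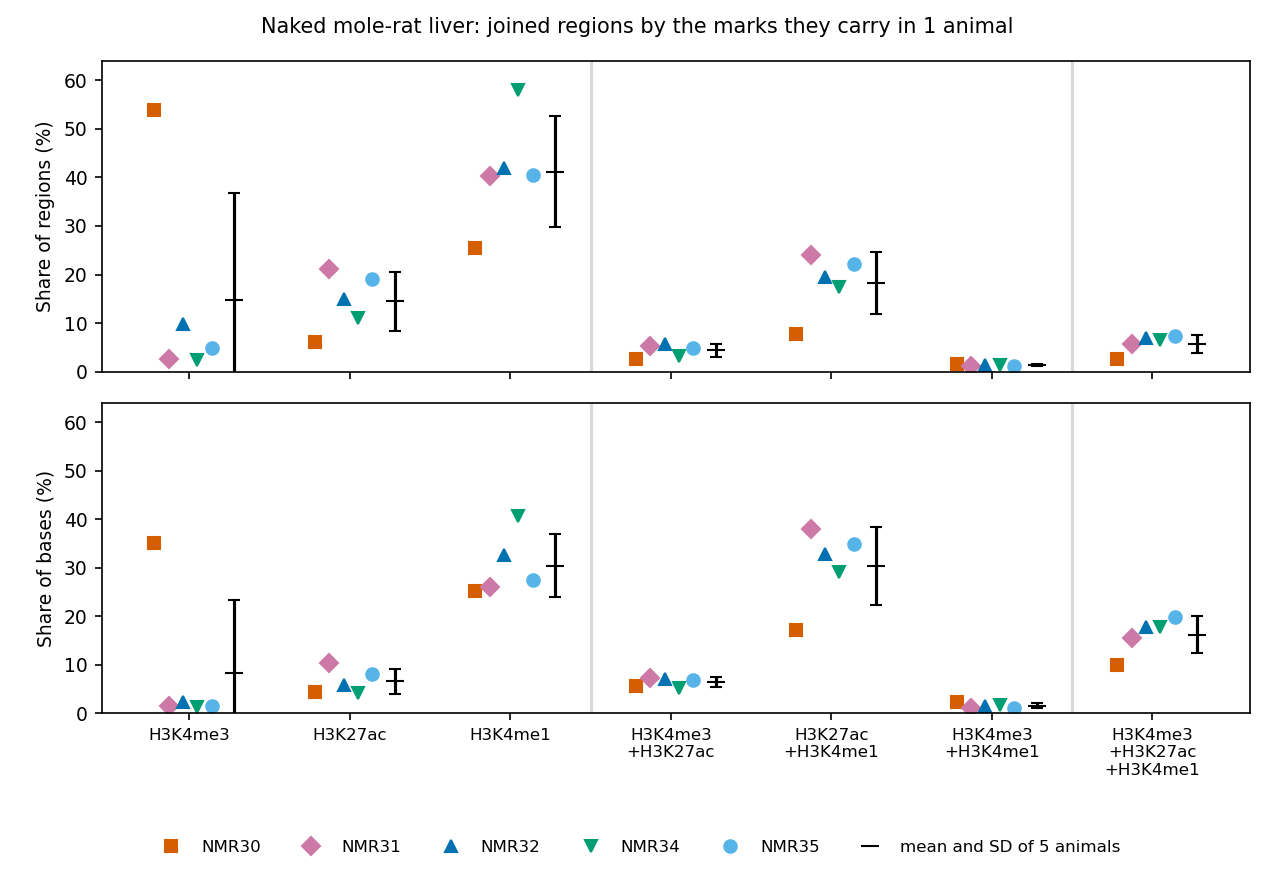
Share of joined regions (top) and of their bases (bottom), in percent, for the 7 combinations of marks; points are the 5 animals and bars the mean and SD, cut at 0. Regions with all 3 marks hold 5.76% of regions and 16.2% of bases on average, and H3K4me3 alone in NMR30 reaches 53.8% of regions.

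The 3 combinations that pair H3K27ac with another mark recurred most often from animal to animal. Each region was looked up in each other animal, which gives 20 ordered pairs of animals. The same combination was found for 57.8% of regions with H3K27ac and H3K4me1 (range over pairs 42.1% to 67.5%), 53.9% with all 3 marks (32.6% to 73.9%) and 51.5% with H3K4me3 and H3K27ac (34.8% to 64.2%). H3K4me3 with H3K4me1 recurred in 17.7% (2.23% to 39.7%), and in 26.3% without NMR30. Among single marks the share was 34.7% for H3K4me1 (23.4% to 49.6%), 17.0% for H3K27ac (10.1% to 24.6%) and 13.5% for H3K4me3 (0.275% to 34.2%). No test was made, since pairs share animals. Combinations that pair H3K27ac with another mark were also the widest. Mean median spans were 1475 bases with all 3 marks, 852 with H3K27ac and H3K4me1 and 791 with H3K4me3 and H3K27ac (n = 5). They were 605 with H3K4me3 and H3K4me1 and 230 to 364 for single marks. The part of span in recurrence was not tested.

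Regions with H3K4me3 and H3K27ac that changed combination mostly gained H3K4me1, whereas many single-mark regions had no counterpart. Regions with H3K4me3 and H3K27ac had gained H3K4me1 in the other animal in 31.3% of cases, and regions with all 3 marks lacked H3K4me1 in 20.2% and H3K4me3 in 14.3%. No region at all lay in the other animal for 1.35% of those with all 3 marks, 8.91% with H3K27ac and H3K4me1, 47.9% with H3K4me1 alone, 49.9% with H3K27ac alone and 64.2% with H3K4me3 alone. Without NMR30 (12 pairs) the last value was 51.1%, and the same combination was found for 63.1% of regions with all 3 marks and 19.2% with H3K4me3 alone.

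Over all 5 animals, 10707 joined regions carried H3K27ac with H3K4me1 in each animal, 10555 carried H3K4me1 alone, 2868 all 3 marks and 1711 H3K4me3 with H3K27ac. H3K27ac alone was kept in all 5 at 848 of 114020 regions (0.744%), H3K4me3 alone at 112 of 252750 (0.0443%) and H3K4me3 with H3K4me1 at 28 of 13110 (0.214%). Fewer animals give higher counts. Without NMR30, 5001 regions (24.0%) carried all 3 marks in each of 4 animals. Leaving out another animal gave 3079 to 3484 (13.0% to 14.3%). Likewise H3K4me3 with H3K4me1 was kept at 186 regions (2.69%) without NMR30 against 36 to 43 (0.306% to 0.351%). H3K4me3 alone was kept at 396 (1.24%) against 155 to 172 (0.0618% to 0.0708%). H3K27ac alone gave 1505 without NMR30 and 1561 without NMR34 against 1084 to 1202, and H3K4me3 with H3K27ac gave 2585 without NMR34 against 2000 to 2385.

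One region of each combination was taken as an example, the one with the highest mean percentile of fold over its lists. Positions are on HetGla_1.0, counted from 1, and gene annotation of this build was not used here. The H3K4me3 with H3K27ac example spanned JH167377.1:406505-408205 (1701 bases). Its highest H3K4me3 fold was 400 in NMR35, 380 in NMR34, 253 in NMR31, 210 in NMR32 and 98.4 in NMR30, and its highest H3K27ac fold was 77.3 in NMR32, 64.3 in NMR35, 48.8 in NMR30, 47.2 in NMR34 and 45.2 in NMR31. No H3K4me1 peak lay there in any animal. Folds depend on the library, so their order among animals was not tested. FOXA1 had a summit there in NMR30, RXRA in NMR35 and HNF4A in both.

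The example with all 3 marks, JH169003.1:710955-723174, spanned 12220 bases under a single H3K27ac peak in each animal, with 4 to 9 H3K4me3 and 3 to 9 H3K4me1 peaks. Its H3K27ac fold was 108 in NMR32, 84.2 in NMR31, 69.8 in NMR30, 55.8 in NMR34 and 45.4 in NMR35. All 8 factor lists had a summit there, up to 5 for HNF4A and for RXRA in NMR35. The widest interval, formed by joining regions with all 3 marks over the 5 animals, was JH168785.1:699306-734683 (35378 bases), and no animal filled it. Its regions with all 3 marks spanned 27393 bases in NMR32, 26721 in NMR31, 10918 in NMR34 and 8925 in NMR35, and NMR30 had 3 separate ones of 15537, 7773 and 4655. Over the whole interval each animal had 21 to 30 H3K4me1, 3 to 12 H3K27ac and 1 to 5 H3K4me3 peaks. It held 8 and 7 CEBPA summits in NMR30 and NMR35 and no HNF4A summit in NMR30.

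The example with H3K27ac and H3K4me1 lay at JH172084.1:792687-797189 (4503 bases). Its highest H3K27ac fold was 87.2 in NMR32, 61.8 in NMR35, 45.4 in NMR31, 42.3 in NMR30 and 31.4 in NMR34, and its H3K4me1 fold was 12.3 to 17.0. No H3K4me3 peak lay there in any of the 5 lists. RXRA had 2 summits in NMR30 and 3 in NMR35.

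The other 4 examples carried 1 mark or lacked H3K27ac. H3K4me1 alone, at JH168156.1:3897342-3899273, had folds of 10.4 to 16.2, and 1 acetyl peak, in NMR35 with a fold of 4.33, met the span. The span held 3 H3K4me1 peaks in NMR31 and in NMR34 and 2 in NMR35, not all of them in regions with H3K4me1 alone. CEBPA and FOXA1 had a summit there in NMR30, HNF4A in NMR35 and RXRA in both. H3K27ac alone, at JH168708.1:230884-232027, had folds of 29.6 to 46.3. H3K4me3 or H3K4me1 peaks of NMR30, NMR31 and NMR35, with folds of 3.42 to 7.46, touched the span. CEBPA had a summit there in NMR30 and RXRA in NMR35. H3K4me3 alone, at JH170047.1:480202-480924, had folds of 12.4 in NMR30, 18.0 in NMR32, 24.3 in NMR35, 33.3 in NMR34 and 53.0 in NMR31, and held no factor summit. H3K4me3 with H3K4me1, at JH172443.1:237326-238128, had H3K4me3 folds of 7.18 to 24.4, H3K4me1 folds of 5.37 to 12.1 and no factor summit.

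Among the 7 combinations, summits of each of the 8 factor lists were densest in one that joins H3K27ac with at least 1 other mark. CEBPA, FOXA1, HNF4A and RXRA are transcription factors of hepatocytes, RXRA being the shared partner of many nuclear receptors. Summits of the 8 factor lists were counted in the regions of the same animal and divided by the bases, since combinations differ in span. The factor lists held from 26218 peaks (RXRA, NMR30) to 122941 (CEBPA, NMR30). Density outside the marked regions is not given here, so these values compare combinations and have no background beside them. Regions with all 3 marks held a median of 153 summits per Mb over the 8 lists, those with H3K4me3 and H3K27ac 134 and those with H3K27ac and H3K4me1 97.6. The medians were 66.1 for H3K4me3 with H3K4me1, 62.1 for H3K27ac alone, 53.4 for H3K4me1 alone and 37.8 for H3K4me3 alone. The last place of H3K4me3 alone was seen in NMR30 and not in NMR35. In NMR30 its median over 4 lists was 24.2, against 34.4 for H3K4me1 alone. In NMR35 the median was 68.7 for H3K4me3 alone, 66.9 for H3K27ac alone and 58.1 for H3K4me1 alone. All 3 marks had the highest median in both animals, 120.2 in NMR30 and 170.4 in NMR35.

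RXRA in NMR35 reached 280 summits per Mb with H3K4me3 and H3K27ac and 277 with all 3 marks, against 61.6 in H3K4me1 alone. In NMR30 these densities were 129, 140 and 26.8. CEBPA in NMR30 had 269 with all 3 marks, 266 with H3K4me3 and H3K27ac, 248 with H3K27ac and H3K4me1 and 153 in H3K4me1 alone, and in NMR35 175, 180, 162 and 101. HNF4A in NMR35 had 166, 140, 91.5 and 52.4 in that order, and in NMR30 50.5, 51.6, 26.2 and 16.5.

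FOXA1 is known for opening compact chromatin at enhancers. In NMR35 it was densest with H3K27ac and H3K4me1, at 104 summits per Mb against 91.2 with all 3 marks and 69.1 with H3K4me3 and H3K27ac. In NMR30 the 3 values were 80.9, 101 and 85.6. The NMR35 list of FOXA1 was the only 1 of 8 in which H3K27ac with H3K4me1 exceeded all 3 marks. Across the 8 lists, H3K27ac with H3K4me1 exceeded H3K4me1 alone in 8 of 8, by a median of 0.87 on the log2 scale (0.67 to 1.74), and all 3 marks exceeded it in 8 of 8, by 1.44 (0.74 to 2.38). Regions with all 3 marks and with H3K4me3 and H3K27ac differed little, at 0.06 (−0.04 to 0.40), in 5 of 8. With 2 animals per factor no test was made.

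As a share of regions, 38.7% of those with all 3 marks held an RXRA summit in NMR35 and 20.6% in NMR30, against 2.63% and 1.20% of those with H3K4me1 alone. With factor peaks of a −log10 q of at least 4 the median excess of all 3 marks over H3K4me1 alone was 1.79, and with folds of at most 100 it was 1.43, in 8 of 8 lists each.

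**Figure D5:**
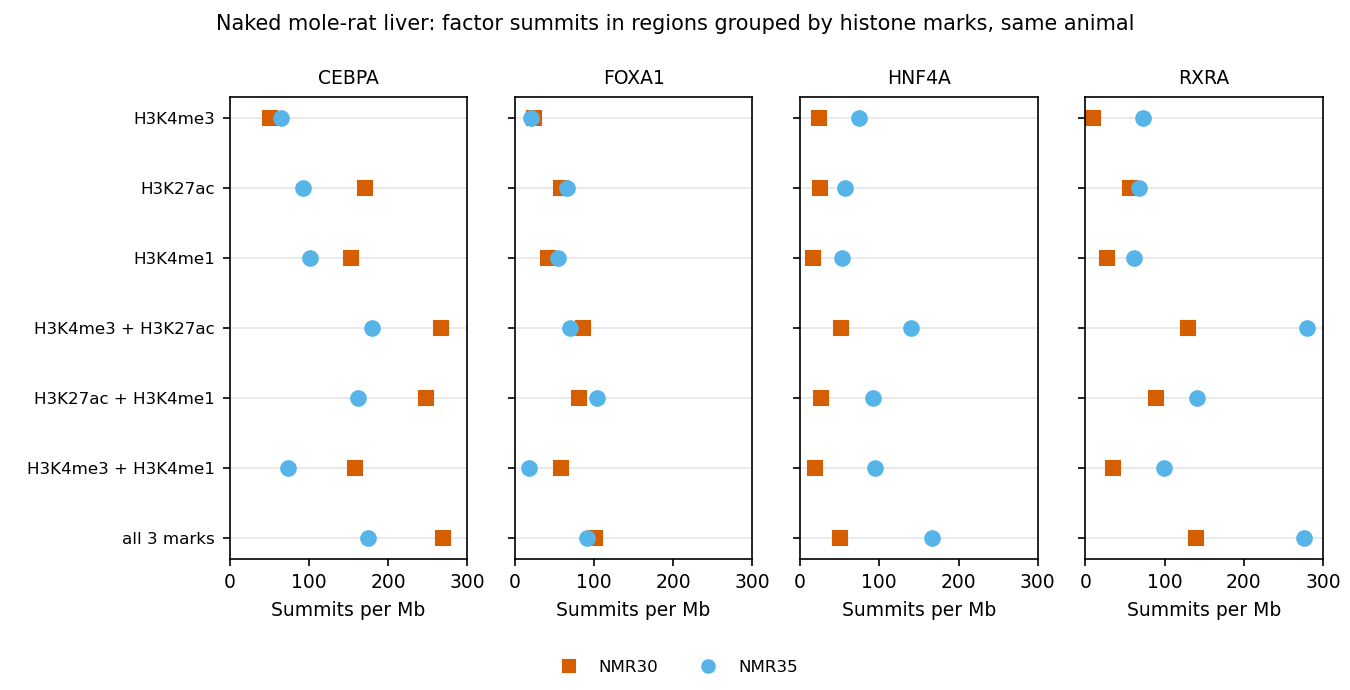
Factor summits per Mb of region (x axis) for the 7 combinations of histone marks (y axis), in a panel for each of 4 factors; squares are NMR30 and circles NMR35. RXRA in NMR35 reaches 280 with H3K4me3 and H3K27ac, and FOXA1 in NMR35 is densest, at 104, with H3K27ac and H3K4me1.

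Against the livers of the other species, naked mole-rat H3K4me3 peaks were less often accompanied by another mark than those of mouse, without passing the test. H3K27ac overlapped 83.8% ± 1.83 of H3K4me3 peaks in mouse (SD, n = 4) and 97.6% ± 0.871 in guinea pig (n = 3), against 55.5% ± 27.2 in naked mole-rat (n = 5). By exact permutation the adjusted p was 0.0571 against mouse and 0.0918 against guinea pig, over 12 comparisons. Without NMR30 the differences moved from −28.3 to −16.6 points against mouse and from −42.1 to −30.4 against guinea pig (adjusted exact permutation p = 0.0571 each). Naked mole-rat without NMR30 had a range of 54.6% to 74.9%, which lies below the range of both species. H3K4me1 overlapped 70.9% ± 6.64 of mouse H3K4me3 peaks, a difference of −36.1 points for naked mole-rat minus mouse (adjusted exact permutation p = 0.0536). In guinea pig it overlapped 28.8% ± 9.87, a difference of 5.96 points (adjusted exact permutation p = 0.625). That difference was 13.1 points without NMR30, 0.972 without NMR34, 3.93 without NMR35, 11.5 without GuineaPig7 and 2.08 without GuineaPig9. Against mouse, H3K4me3 with H3K4me1 was −28.9 without NMR30.

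None of the 12 comparisons passed, and 5 had an unadjusted exact permutation p below 0.05. The smallest adjusted p was 0.0536, shared by 4 of them. Besides the one above these were H3K4me1 with H3K4me3, 9.98% against 16.2% ± 1.76 in mouse and 3.58% ± 1.22 in guinea pig, and H3K27ac with H3K4me3, 23.9% against 14.6% ± 1.22 in guinea pig. The naked mole-rat lay between the other 2 for H3K4me1 with H3K4me3. In the setting with the 20000 strongest peaks, shorter lists entered whole: H3K4me3 of mouse (17431 to 19301 peaks) and of guinea pig (14782 to 16530). Naked mole-rat minus mouse was then −21.9 points for H3K4me3 with H3K4me1, −13.5 for H3K27ac with H3K4me1, −19.2 for H3K4me1 with H3K4me3 and −21.2 for H3K4me1 with H3K27ac (adjusted exact permutation p = 0.0238 each). For H3K4me3 with H3K27ac it was −8.89 (adjusted exact permutation p = 0.0595), and −26.3 against guinea pig (0.0306). Lists of the species differ in build and in the number and width of peaks. Mean median H3K27ac widths were 348 bases in naked mole-rat, 615 in mouse and 588 in guinea pig. For H3K4me3 they were 433, 1188 and 949, and the naked mole-rat H3K4me3 lists held 27591 to 253457 peaks. The part of build or width in the shares was not tested.

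Damaraland mole-rat values, from 2 animals and not tested, were 74.4% and 80.9% for H3K4me3 with H3K27ac, inside or above the naked mole-rat range of 8.78% to 74.9%. H3K27ac with H3K4me1 gave 62.3% and 65.2%, and the median distance between H3K4me3 and H3K27ac summits was 92 and 93 bases, within the 76 to 122 of the naked mole-rat. Between H3K27ac and H3K4me1 summits the naked mole-rat median of 207 to 267 bases lay below those of mouse (284 to 375), guinea pig (433 to 465) and Damaraland mole-rat (272 and 296), with no test made.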

How the data were processed

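Chromatin of whole liver was immunoprecipitated and sequenced, with 1 library per animal and mark. The authors deposited 1 list of peaks per library, called with MACS2 per the submitters' processing notes, and file names give the build HetGla_1.0 for naked mole-rat. The MACS2 version, aligner and read depth were not given in the sources used here, so the number of peaks and the caller's q stand in for depth. The authors' lists give each peak a fold enrichment over background, and a −log10 p-value and −log10 q-value, as deposited; these were used to rank, filter or describe peaks within a list, with all peaks of the 15 naked mole-rat lists having a q-value of at most 0.05. Merging peaks within a list changed nothing.

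Overlaps, summit distances, widths and folds were computed per animal using SciPy 1.17.1, pandas 2.3.3 and NumPy 2.4.6 under Python 3.11.15, and drawn in Matplotlib 3.10.9. Shares, widths and summit distances were compared between marks by two-sided exact permutation of 5 against 5 values (smallest p 0.00794). That permutation did not keep the values of an animal paired, although shares often came from the same libraries. Classes of peaks within a library were compared by exact sign-flip. Benjamini-Hochberg adjustment was made in families of 6, 3, 3, 3 and 12, with a threshold of 0.05. The labels give the same animal for the 3 marks, which pairs the libraries, and animals are separate. Scripts were tested on simulated data. Alternatives were a 1-base overlap, a summit inside the other peak, a −log10 q of at least 4, the 20000 strongest peaks by −log10 p, scaffolds reaching 1000000 bases, unmerged peaks, nearest summits, each animal left out, pairing by animal, exchange within library series and do-series animals alone. Dropping peaks of the shortest length, leaving out mouse and guinea pig animals, both limits on factor peaks, and factor medians per animal were chosen after seeing the data.

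The region named for each combination was the one kept in all 5 animals with the highest mean percentile of fold, plus the widest interval joined over animals with all 3 marks. Members and lists were chosen with earlier results of these data known. Genome sequence and gene annotation of HetGla_1.0 were not used here, so no gene is named and liver marker genes were not checked.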

Additional observations from a re-analysis of the deposited data

Results flagged for a closer look

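In 25 groups of 5 animals, 3 values lay far from the other 4, where chance gives about 1 in 20 groups. The H3K4me3 list of NMR30 held 253457 peaks, against 27591 to 48726 in the other animals. In the same animal 53.8% of joined regions carried H3K4me3 alone, against 2.36% to 9.78%, and these 2 values come from 1 list. The median H3K4me1 peak of NMR32 was 552 bases wide, against 402 to 443 in the other 4.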

How the results depend on the processing

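Read depth is unknown, and 5 animals limit every test. Overlap differences are in percentage points, and widths, distances and folds on the log2 scale, with adjusted exact permutation or sign-flip p in parentheses. With a −log10 q of at least 4, H3K27ac minus H3K4me1 width was −0.30 (0.0714), and 29 of 30 results kept direction and side of the threshold. With the 20000 strongest peaks, 12 of 30 did. There H3K4me3 with H3K27ac minus the reverse was −0.798 (0.960), H3K27ac with H3K4me1 minus the reverse −1.36 (0.881), H3K4me3 with H3K27ac minus with H3K4me1 47.5 (0.0159) and H3K27ac with H3K4me1 minus with H3K4me3 −30.0 (0.0159). Widths were −0.35 (0.0595) for H3K4me3 minus H3K27ac and −0.11 (0.397) for H3K27ac minus H3K4me1. The last distance difference was 0.21 (0.111), and 32.1% and 3.81% of regions had 2 and 3 marks. H3K4me3 lists of mouse and guinea pig held fewer than 20000 peaks and entered whole. Against mouse, H3K4me3 with H3K4me1 was −21.9, H3K27ac with H3K4me1 −13.5, H3K4me1 with H3K4me3 −19.2, H3K4me1 with H3K27ac −21.2 (0.0238 each) and H3K27ac with H3K4me3 0.988 (0.754). Against guinea pig, H3K4me3 with H3K27ac was −26.3, H3K27ac with H3K4me1 −8.14, H3K4me1 with H3K27ac −12.5 (0.0306 each) and H3K27ac with H3K4me3 −1.32 (0.754). Without peaks of the shortest length, chosen after seeing the data, H3K4me3 with H3K27ac minus the reverse was 45.6 (0.0119), H3K4me3 with H3K4me1 minus the reverse 28.5 (0.0159), H3K4me3 with H3K27ac minus with H3K4me1 33.5 (0.0159), and H3K4me3 width minus H3K27ac 0.54 (0.0119) and minus H3K4me1 0.20 (0.135). With an overlap of 1 base, H3K4me3 with H3K4me1 against guinea pig was −30.1 (0.0952). With the summit inside the other peak, H3K4me3 with H3K27ac minus the reverse was 31.2, H3K4me3 with H3K4me1 minus the reverse 13.5 and H3K4me3 with H3K27ac minus with H3K4me1 32.3 (0.0476 each). Against mouse it gave −28.8, −18.7, −8.22 and −15.6, for H3K4me3 with H3K27ac, H3K4me3 with H3K4me1, H3K4me1 with H3K4me3 and H3K4me1 with H3K27ac, and against guinea pig −43.9, 8.41 and 4.45, for H3K4me3 with H3K27ac, H3K27ac with H3K4me3 and H3K4me1 with H3K4me3 (0.0408 for each of these 7). With nearest summits, distances differed by −0.14 (0.992) and 1.38 (0.679), and the last difference was 1.52 (0.0238). With pairing by animal as a replicate block, 5 animals allow no exact sign-flip p below 0.063, so no call could be kept. The 3 called overlap differences were 21.1, 33.8 and 26.6 (0.0938 each) and the width difference −0.36 (0.188). Distances were 1.33, 1.81 (0.0938 each) and 0.48 (0.125). Each of these 7 calls was thus lost by construction, and no other call changed. Without changing direction, fold increases from 1 to 3 marks fell to 1.40, 0.71 and 0.07 for H3K4me3, H3K27ac and H3K4me1 with the 20000 strongest peaks, and to 0.50, 0.76 and 0.22 with the summit rule. With no replicate block, fold increases were 1.83 (0.0238), 1.41 and 0.41 (0.0119 each). Exchange within library series gave −0.36 (0.05) for width and 0.48 (0.05) for the last distance. Scaffolds reaching 1000000 bases (30 results) and unmerged peaks (3 widths) changed no call or direction. With do-series animals alone, run for the 12 comparisons with other livers, none of them calls, the directions stayed and the lowest adjusted p was 0.114. Apart from what the construction shows, fewer peaks or animals, the cause was not tested. Leaving out each animal in turn, the ranges were 25.8 to 43.6 for H3K4me3 with H3K27ac minus the reverse, 18.1 to 24.0 for H3K27ac with H3K4me1 minus the reverse and 19.8 to 31.9 for H3K4me3 with H3K4me1 minus the reverse. They were 33.3 to 34.8 for H3K27ac with H3K4me1 minus with H3K4me3 and 24.3 to 28.5 for H3K4me1 with H3K27ac minus with H3K4me3. Widths ran from −0.022 (without NMR34) to 0.39, from −0.44 to −0.27 and from −0.36 to 0.12 (without NMR32), and the last distance from 0.38 to 0.67.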
